A study of Arabidopsis thaliana with 26 samples.

Results

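The nitrate and nitrite reduction genes of *Arabidopsis thaliana* roots were followed over the first 20 min of nitrate supply. The group is defined by function and comprised the 2 nitrate reductase genes NIA1 (AT1G77760, probe set 259681_at) and NIA2 (AT1G37130, 261979_at), the nitrite reductase gene NIR1 (AT2G15620, 265475_at) and the siroheme synthesis gene UPM1 (AT5G40850, 249325_at), that is 4 of the 22746 probe sets tested. These 4 probe sets carry no entry in the probe annotation used here, so their gene names come from the definition of the group. For NIA1, NIR1 and UPM1 the name was checked against a locus-level profile of the study, which matched that probe set alone among 22810 (all 6 salt ratios within 0.1%), whereas the name of NIA2 could not be checked in this way.

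Columbia plants were raised in hydroponics for 14 days with 0.5 mM ammonium succinate as their nitrogen source, then kept without nitrogen for 24 h. They were moved to medium with 1 mM KNO3, or with 1 mM KCl as the mock treatment, and roots were collected after 3, 6, 9, 12, 15 and 20 min. Roots collected before the transfer served as time 0. Each of the 13 groups was represented by 2 ATH1 arrays, giving 26 arrays in all, and all groups shared the genotype, age, ammonium succinate pre-culture and nitrogen-free day. The samples were whole roots, so values are averages over all root cell types, and a change in the number of expressing cells and a change in RNA per cell cannot be told apart.

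Nitrate taken up by a root cell is reduced in the cytosol to nitrite by nitrate reductase, a molybdenum cofactor enzyme that draws electrons from NADH. Nitrite enters the plastid, where nitrite reductase converts it to ammonium with electrons from ferredoxin and with siroheme as its prosthetic group. UPM1 is uroporphyrin III methyltransferase, which diverts the tetrapyrrole precursor uroporphyrinogen III towards siroheme. Genes of this pathway are classical markers of the primary nitrate response in plants.

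Values are MAS5 signals, a linear measure of hybridization on an Affymetrix array, and differences between salts are log2 KNO3 minus log2 KCl with the standard error (SE) from a limma fit over all 13 groups. A difference was called where the Benjamini-Hochberg adjusted p over all 22746 probe sets was under 0.05. All 4 genes lay above the median signal of the array on each of the 26 arrays. The 8 arrays of 3 and 6 min stood apart from the other 18: their median signals were 220.2 to 285.0, against 207.3 to 227.4, their spike-in controls averaged 12.23 to 13.08 on the log2 scale, against 9.68 to 10.90, and the median correlation between the replicates of a group was 0.928, against 0.962. The salts were compared within a time point and hence within one set of arrays, whereas comparisons with time 0 cross the sets at 3 and 6 min. Cell type markers were looked up only among probe sets annotated with 1 gene, and those not found were not analysed. Of the root markers considered, 1 of 10 was found: EXPA7, an expansin of root hair cells, with signals of 516 to 1324. Of the leaf markers, 1 of 6 was found, RCA (Rubisco activase), at 155 to 1582.

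In the fit over all arrays, nitrite reductase was called at an earlier time point than the other 3 genes. That call, at 6 min, was lost in several alternative fits. NIR1 was higher in KNO3 than in KCl roots at every time from 6 min on, and by 20 min the difference was 4.15-fold. At 3 min NIR1 had signals of 1121 and 1228 in KNO3 roots, against 1335 and 1056 in KCl roots. At 6 min the signals were 1269.6 and 1589 in KNO3 roots, against 1017 and 751 in KCl roots. The salts overlapped at 3 min and separated at 6 min, when both KNO3 arrays exceeded both KCl arrays. Against time 0, NIR1 at 6 min was at -0.09 log2 units in KNO3 roots (limma adjusted p 0.67) and -0.79 in KCl roots (0.00053). The KCl pair was thus the one called apart from time 0, in a comparison that crosses the array sets. At 9 min NIR1 gave 3483 and 3296 in KNO3 roots, against 1446 and 1329 in KCl roots. At 12 min it gave 5007 and 4555 in KNO3 roots, against 1845 and 1941 in KCl roots. From 9 min on, the lower of the KNO3 arrays was above every KCl array of any time point. At 15 min the values were 4922 and 6444 in KNO3 roots, against 1611 and 1645 in KCl roots. At 20 min they were 6717 and 7129 in KNO3 roots, against 1705 and 1627 in KCl roots. From 9 min on KCl roots thus lay between 1329 and 1941, beside time 0 signals of 1484 and 1539.7, while the KNO3 means increased at each step.

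In order of time, the NIR1 difference was -0.02, 0.70, 1.29, 1.34, 1.79 and 2.05 on the log2 scale (SE 0.15 each). The limma adjusted p was 0.98 for 3 min, then 0.043, 0.00022, 4.9e-05, 4.5e-07 and 2.6e-08 for the later times. At 9 min NIR1 had already reached 62.7% of its 20 min log2 difference, and at 15 min 87.1%. At 6 min, when 0.413% of all probe sets were called in either direction, NIR1 was the 1 gene of the 4 that was called. That call was lost without KCl 6 min replicate 2 (0.48, adjusted p 0.32) and without KNO3 6 min replicate 2 (0.54, adjusted p 0.23), and also in 5 alternative fits, among them one on the 8 arrays of 3 and 6 min alone (adjusted p 0.83). EXPA7, the root hair marker, was 0.59 and 0.52 log2 units higher in KNO3 than in KCl roots at 6 and 9 min (SE 0.18) and 0.60 lower at 20 min (log2 difference -0.60), none of these being called, and its part in the results was not tested.

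UPM1, whose product makes the precursor of the nitrite reductase cofactor, was called higher in KNO3 than in KCl roots from 9 min on and differed 4.97-fold at 20 min. At 3 min UPM1 had signals of 682 and 716 in KNO3 roots, against 592 and 776 in KCl roots. At 6 min it had 1051 and 922 in KNO3 roots, against 797 and 714 in KCl roots. As with NIR1, the salts overlapped at 3 min and separated at 6 min. At 9 min the signals were 1737 and 1652 in KNO3 roots, against 851 and 701 in KCl roots. At 12 min they were 2579 and 2690.0 in KNO3 roots, against 929 and 1033 in KCl roots. Every KNO3 array from 9 min on was above every KCl array of the whole course, the highest of which was the 12 min value of 1033. At 15 min UPM1 gave 2837 and 3232 in KNO3 roots, against 841 and 919.9 in KCl roots. At 20 min it gave 4699 and 4465 in KNO3 roots, against 994 and 853 in KCl roots. The KCl series ran between 592 and 1033, beside time 0 signals of 926 and 822.

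From the first to the last time point, the log2 difference of UPM1 was 0.04, 0.38, 1.13, 1.43, 1.78 and 2.31 (SE 0.14 each). By limma the adjusted p was 0.93 and 0.30 for 3 and 6 min, and 0.00030, 6.6e-06, 1.9e-07 and 2.9e-09 for the 4 later times. At 20 min UPM1 had the second smallest p of all probe sets and NIR1 ranked 10, in a comparison where 0.743% were called. UPM1 reached 49.0% of its 20 min log2 difference at 9 min and 77.1% at 15 min. NIR1 and UPM1 were the 2 genes of the group called higher at 9, 12, 15 and 20 min alike, as were 27 of the 22746 probe sets. In the plot of signals by time both genes lie above the KCl series from 6 min on.

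**Figure D1:**
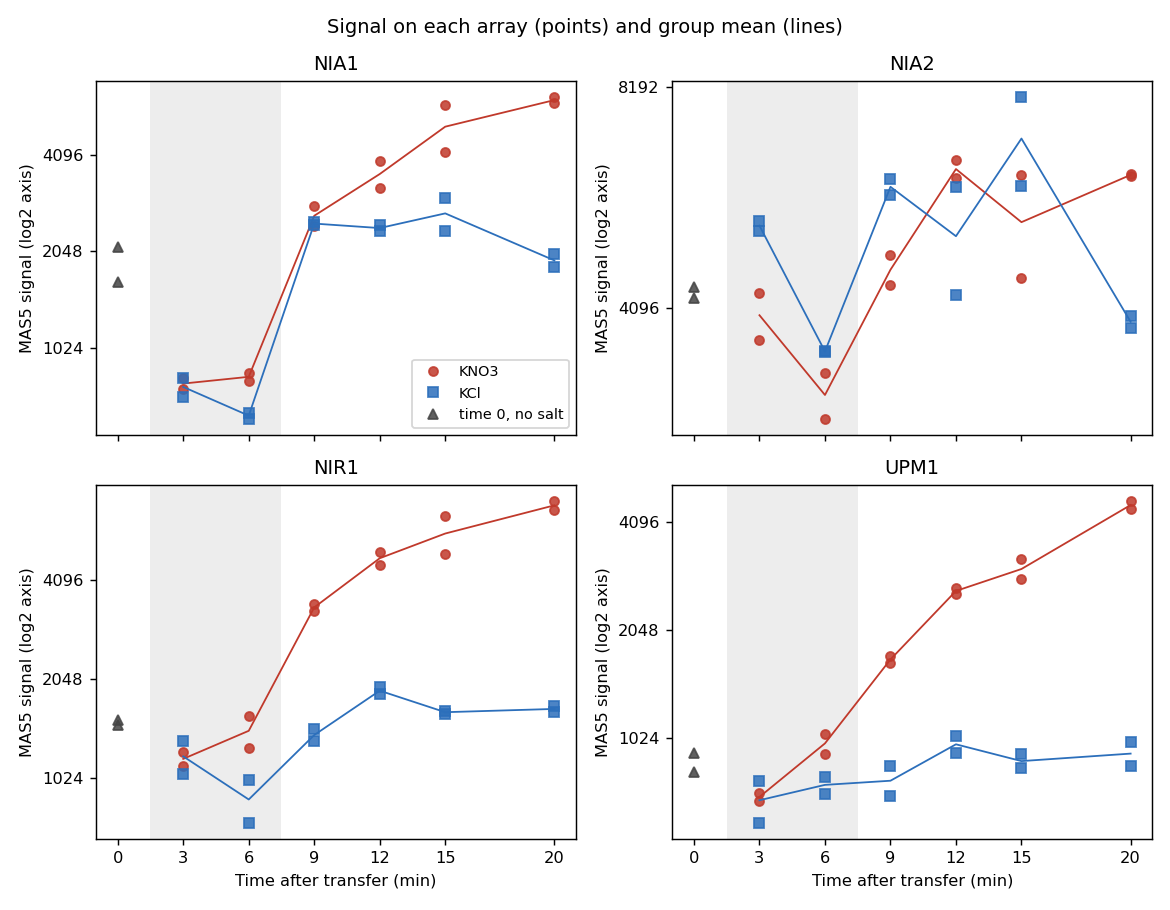
MAS5 signal (log2 axis) of NIA1, NIA2, NIR1 and UPM1 against time after transfer in min. Each point is 1 array (KNO3 red circles, KCl blue squares, time 0 grey triangles), lines join the means of 2 arrays, and the shaded band holds the 8 arrays of 3 and 6 min. NIR1 and UPM1 climb in KNO3 roots to 6717 and 7129 and to 4699 and 4465 at 20 min, NIA1 separates later, and the series of NIA2 cross.

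NIA1, one of the 2 nitrate reductase genes, was called higher in KNO3 than in KCl roots at 15 and 20 min only, reaching 3.17-fold. At 3 min NIA1 had signals of 823 and 761 in KNO3 roots, against 720 and 825 in KCl roots. At 6 min it had 857 and 805 in KNO3 roots, against 642 and 615 in KCl roots. At 9 min it had 2831 and 2462 in KNO3 roots, against 2468 and 2535 in KCl roots. The salts overlapped at 3 and 9 min and were apart at 6 min, and both salts were far higher at 9 min than at 6 min. At 12 min the signals were 3911 and 3233 in KNO3 roots, against 2471 and 2373 in KCl roots. At 15 min they were 4189 and 5852 in KNO3 roots, against 3003 and 2380 in KCl roots. At 20 min they were 5949 and 6210 in KNO3 roots, against 1833 and 2005 in KCl roots. KNO3 arrays were above the KCl arrays of their time point from 12 min on, and the KCl signals at 20 min lay within the time 0 pair of 1645 and 2118.

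On the log2 scale the NIA1 difference, in order of time, was 0.04, 0.40, 0.08, 0.55, 0.89 and 1.66 (SE 0.16 each). The limma adjusted p was 0.11, 0.0033 and 9.2e-07 for 12, 15 and 20 min. At 9 min NIA1 stood at 4.67% of its 20 min log2 difference, and at 15 min at 53.4%. At 15 min, when 1.2% of all probe sets were called, the NIA1 call was lost without KCl 15 min replicate 2 (0.72, adjusted p 0.12) or KNO3 15 min replicate 2 (0.65, adjusted p 0.054). With NIA1, 3 of the 4 genes were called higher at both 15 and 20 min, as were 67 of all 22746 probe sets. RCA, the leaf marker, stood out on KNO3 12 min replicate 2 (726) and KNO3 15 min replicate 1 (1582), against 155 to 408 on the other 24 arrays. Without KNO3 15 min replicate 1 the differences at 15 min were 1.13 for NIA1, 1.98 for NIR1 and 1.88 for UPM1, each still called, and without KNO3 12 min replicate 2 those at 12 min were 1.40 for NIR1 and 1.40 for UPM1, also called.

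NIA2, the other nitrate reductase gene, was not called at any time point and had no constant direction. Its time 0 signals were 4225 and 4373. At 3 min NIA2 had signals of 4295 and 3705 in KNO3 roots, against 5219 and 5382 in KCl roots. At 6 min it had 3336 and 2889 in KNO3 roots, against 3573 and 3567 in KCl roots. At 9 min it had 4831 and 4399 in KNO3 roots, against 5835 and 6145 in KCl roots. At these first 3 time points both KNO3 arrays lay below both KCl arrays. At 12 min the signals were 6509 and 6159 in KNO3 roots, against 4266 and 5991 in KCl roots. At 15 min they were 4502 and 6217 in KNO3 roots, against 6001 and 7942 in KCl roots. At 20 min they were 6235 and 6201 in KNO3 roots, against 3989.9 and 3847 in KCl roots. KNO3 arrays were the higher ones at 12 and 20 min, the groups overlapped at 15 min, and the replicates at 12 min in KCl and at 15 min in both salts were wide apart.

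Over the 6 times the NIA2 difference was -0.41, -0.20, -0.38, 0.32, -0.38 and 0.67 on the log2 scale (SE 0.16 each). At 20 min the 1.59-fold difference had a limma adjusted p of 0.065 and a 95% confidence interval of 0.33 to 1.00 log2 units. It was called after quantile normalization (0.75, adjusted p 0.026), without dim probe sets (adjusted p 0.035) and with the 20 min arrays fitted alone (adjusted p 0.0028). In 6 of 9 alternative fits it was not called, the highest adjusted p being 0.24. Without 1 array the difference was 0.64 to 0.69 log2 units. At 20 min the KNO3 mean of 6218 ± 24.1 (SD, n = 2) was below the highest KCl value of the course, 7942 at 15 min. The other KCl array at 15 min gave 6001, below that mean.

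Over the group, 0, 1, 2, 2, 3 and 3 of the 4 genes were called at the 6 times in turn, each of them higher in KNO3. The share of all probe sets called was 2.28%, 0.413%, 0.396%, 0.69%, 1.2% and 0.743% at those times, and the share called higher in KNO3 was 1.39%, 0.277%, 0.259%, 0.387%, 0.721% and 0.659%. The median difference of the 4 genes was 0.01, 0.39, 0.61, 0.94, 1.34 and 1.86 log2 units, against -0.03, -0.05, -0.06, 0.01, 0.01 and -0.06 over all probe sets. With 2 arrays per group, absence of overlap was common: 1, 4, 3, 4, 3 and 4 of the 4 genes had separate salts at the 6 times, as did 35%, 35.4%, 49.4%, 40.9%, 40.4% and 44.6% of all probe sets.

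**Figure D2:**
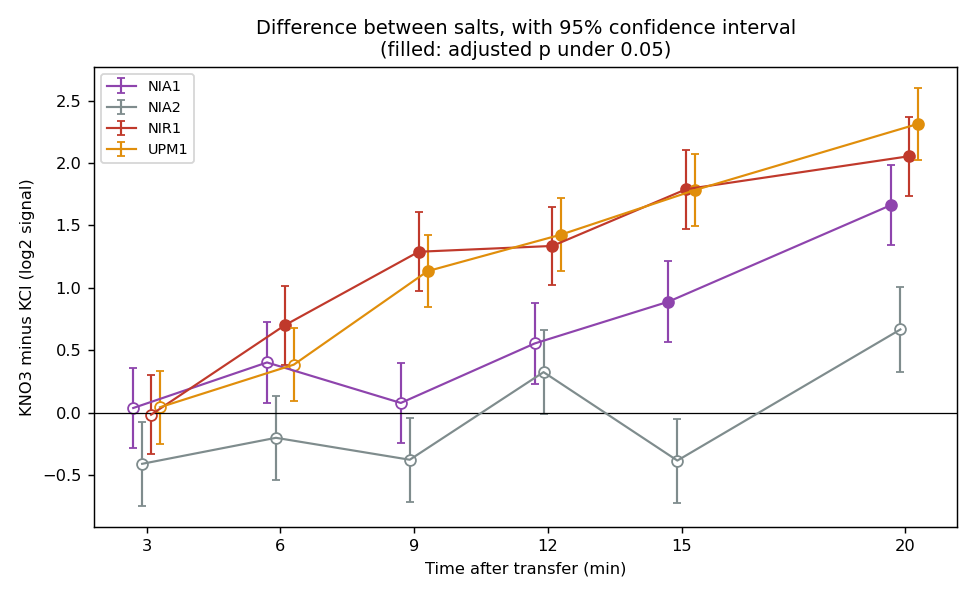
Difference between salts (log2 KNO3 minus log2 KCl signal) against time after transfer in min for the 4 genes, with 95% confidence intervals from the limma fit. Points are shifted sideways for legibility and filled where the adjusted p was under 0.05: NIR1 from 6 min, UPM1 from 9 min, NIA1 at 15 and 20 min, NIA2 at none.

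Averaged over the 6 time points, NIR1 was 1.19 ± 0.06 (SE) log2 units higher in KNO3 than in KCl roots, UPM1 1.18 ± 0.06 and NIA1 0.60 ± 0.06, whereas NIA2 differed by -0.06 ± 0.07. Limma gave adjusted p of 4.7e-11 for NIR1, 1.7e-11 for UPM1, 3.0e-06 for NIA1 and 0.69 for NIA2, with 3.15% of all probe sets called. The 95% confidence interval for NIA2 ran from -0.20 to 0.07. In an exact two-sided permutation test with the salts exchanged within time points, p was 0.00017 for NIR1, 0.00013 for UPM1, 0.00039 for NIA1 and 0.59 for NIA2. KNO3 was the higher salt on the mean of 6 of 6 time points for UPM1 and NIA1, 5 of 6 for NIR1 and 2 of 6 for NIA2.

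The genes were then compared with one another within arrays, by the same exact permutation test over the 6 pairs. The mean salt difference of NIA1 exceeded that of its paralog NIA2 by 0.67 log2 units (exact p 8.6e-05, adjusted over the 6 pairs 0.00017) and did so at 6 of 6 time points. NIA1 minus NIR1 was -0.59 (exact permutation adjusted p 0.0012) and NIA1 minus UPM1 -0.58 (adjusted p 0.0012). These gaps were largest at 9 min, when NIA1 minus NIR1 was -1.21 and NIA1 minus UPM1 -1.06. NIA2 lay below both NIR1 and UPM1 (differences -1.26 and -1.24), each with an exact permutation p of 4.3e-05, the smallest these permutations can give, and an adjusted p of 0.00013. NIR1 and UPM1 differed by 0.01 (exact permutation p 0.90), with differences at single time points between -0.26 and 0.32.

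The difference between the salts had an upward linear trend with time for all 4 genes. For NIA2 it did not grow steadily but changed sign, with -0.38, 0.32, -0.38 and 0.67 log2 units at 9, 12, 15 and 20 min. The linear trend was 0.14 log2 units per min for UPM1 (limma adjusted p 1.0e-07, the smallest p of all probe sets), 0.12 for NIR1 (1.6e-06), 0.09 for NIA1 (8.2e-05) and 0.05 for NIA2 (0.036). A trend was called in 0.967% of all probe sets, in 0.589% as an upward one. The NIA2 trend was the least secure: its call was lost in 12 of the 24 fits that left out 1 array each, in which the trend was 0.046 to 0.056 per min and the adjusted p 0.011 to 0.13. Set against 3 min, the difference at 20 min was larger for each of the 4 genes, by 1.08 (NIA2) to 2.27 (UPM1) log2 units, where 1.34% of probe sets were called. Between 9 and 20 min the difference grew by 1.59 log2 units for NIA1 (limma adjusted p 0.0018), 1.18 for UPM1 (0.0079) and 1.04 for NIA2 (0.039), where 0.554% of probe sets were called. For NIR1 the growth over that interval was 0.77 and was not called (adjusted p 0.15). From 9 to 20 min the mean log2 signal of NIA2 went from 12.17 to 12.60 in KNO3 roots and from 12.55 to 11.94 in KCl roots. That of NIA1 went from 11.37 to 12.57 in KNO3 roots and from 11.29 to 10.90 in KCl roots. A lower KCl signal at 20 min was thus part of the growth for NIA1 and NIA2. In KCl roots UPM1 went from 9.59 to 9.85 and NIR1 from 10.44 to 10.70.

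Each salt was also set against time 0, to show which series moved. These comparisons share the 2 time 0 arrays. In KNO3 roots NIR1 was above time 0 by 1.16, 1.66, 1.90 and 2.19 log2 units at 9, 12, 15 and 20 min, and UPM1 by 0.96, 1.59, 1.80 and 2.39. The limma adjusted p was at most 0.00031 for NIR1 and 0.00084 for UPM1. NIA1 in KNO3 roots was above time 0 by 0.50, 0.93, 1.41 and 1.70 at these times (adjusted p 0.37, 0.0028, 1.4e-05 and 4.7e-07), and without time 0 replicate 1 the 12 min value was 0.75 (adjusted p 0.14). NIA2 in KNO3 roots was not called against time 0 at 9 to 20 min (0.10, 0.56, 0.30 and 0.53), but after quantile normalization it was called at 20 min (0.70, adjusted p 0.033). At 9, 12, 15 and 20 min 0.506%, 0.448%, 1.37% and 1.09% of all probe sets were called between KNO3 and time 0.

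In KCl roots none of the 4 genes was called against time 0 at 9, 12, 15 or 20 min in the fit over all arrays, when 0.615%, 0.391%, 0.769% and 0.44% of all probe sets were. The values there lay between -0.12 and 0.32 for NIR1, between -0.18 and 0.17 for UPM1, between 0.04 and 0.52 for NIA1 and between -0.13 and 0.68 for NIA2. NIA2 in KCl roots at 15 min came closest (0.68, limma adjusted p 0.051), and was called after quantile normalization (0.76, adjusted p 0.033), with a replicate block (adjusted p 0.049), without dim probe sets (0.029) and without KCl 15 min replicate 1 (0.89, 0.038). Where NIR1, UPM1 and NIA1 were called between salts at 9 to 20 min, KNO3 roots were called against time 0 and KCl roots were not. NIA1 in KNO3 roots at 12 min was called against time 0 but not between salts. Called beside not called is no test of which series moved. In KCl roots NIA1 was at 0.52 at 15 min (limma adjusted p 0.15) and at 0.04 at 20 min.

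At 3 and 6 min both salts were low for NIA1. Against time 0, KNO3 roots were at -1.24 and -1.17 and KCl roots at -1.28 and -1.57 log2 units, all called. After quantile normalization these were -1.10 and -1.05 in KNO3 roots and -1.16 and -1.52 in KCl roots. The share of all probe sets called against time 0 was 23.6% and 32.5% in KNO3 roots and 37.6% and 41.4% in KCl roots at the same times, and these are the 8 arrays that stood apart, so a change after the transfer and a difference between array sets cannot be told apart. NIA1 had 615 to 857 on these 8 arrays and 1645 to 6210 on the other 18. Among the other genes, NIR1 in KCl roots at 6 min (-0.79, limma adjusted p 0.00053), UPM1 in KCl roots at 3 min (-0.36, 0.045) and NIA2 in KNO3 roots at 6 min (-0.47, 0.032) were called lower, and the UPM1 and NIA2 calls were lost after quantile normalization (-0.28, adjusted p 0.14, and -0.37, adjusted p 0.088). The UPM1 call was also lost without KCl 3 min replicate 1 (-0.17, adjusted p 0.41), time 0 replicate 1 (-0.28, 0.25) or time 0 replicate 2 (-0.45, 0.063). The NIA2 call was lost without any 1 of its 4 arrays, with values of -0.57 to -0.37 and adjusted p of 0.051 to 0.18.

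**Figure D3:**
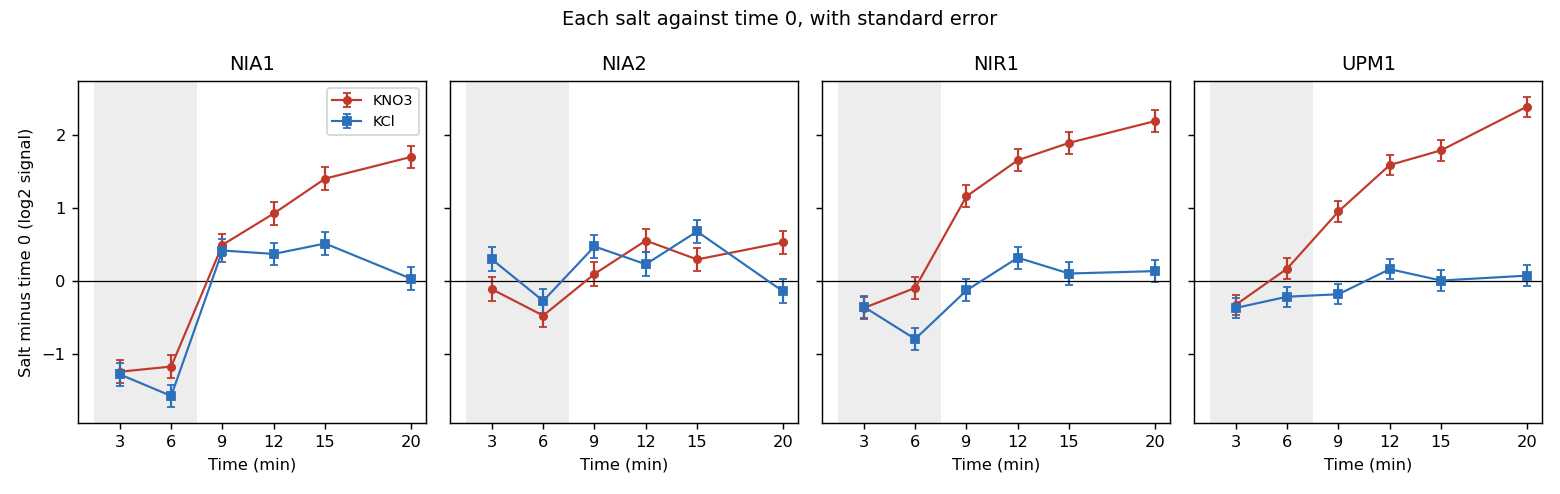
Log2 signal of KNO3 (red circles) and KCl (blue squares) roots minus time 0, with the SE of the limma fit, against time in min for each gene. The shaded band marks the 8 arrays of 3 and 6 min. NIA1 lies below -1 in both salts there, and from 9 min on NIR1 and UPM1 climb in KNO3 roots to 2.19 and 2.39 while their KCl series stay within 0.32 of time 0.

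Ranking the 13 groups by mean log2 signal placed KNO3 20, 15, 12 and 9 min first for both NIR1 and UPM1, and KNO3 20, 15 and 12 min first for NIA1. For NIA2 the highest group was KCl 15 min and the lowest KNO3 6 min. Of the 12 pairs of neighbours in each ranking, 6 had separate values for NIA1, 5 for NIA2, 6 for NIR1 and 4 for UPM1, the remaining neighbours overlapping. Over all probe sets the median was 1 separate pair, and 6.5% of them had 4 or more.

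Across arrays, the log2 signals of NIR1 and UPM1 moved together. Their Pearson r was 0.96 over the 26 arrays and 0.99 over the 18 outside 3 and 6 min, and on those 18 each was the closest of 22745 probe sets to the other. NIA1 had r of 0.86 with NIR1 and 0.79 with UPM1 over the 26 arrays, and 0.89 and 0.88 over the 18. NIA2 had r of 0.67 with NIA1, 0.49 with NIR1 and 0.41 with UPM1 over the 26, and 0.51, 0.29 and 0.30 over the 18. The arrays share salts, times and array sets, so these are descriptions of likeness.

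**Figure D4:**
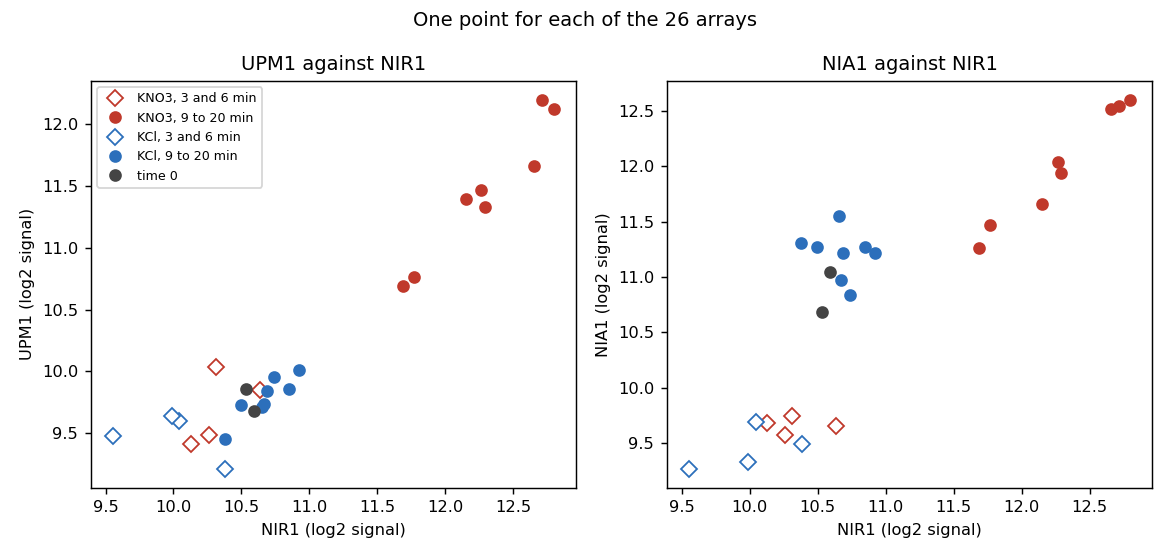
Log2 signal of UPM1 (left) and NIA1 (right) against that of NIR1, 1 point for each of the 26 arrays. KNO3 is red, KCl blue and time 0 grey, and open diamonds mark the arrays of 3 and 6 min. UPM1 rises with NIR1, more closely over the 18 arrays outside 3 and 6 min (r 0.99) than over all 26 (r 0.96). NIA1 (r 0.86 over the 26) splits into a low group of the 8 early arrays and a higher group of the other 18.

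Among annotated genes outside the group, those most like NIR1 over the 26 arrays were AT1G64190 (r 0.97) and AT5G41670 (0.97), both of the 6-phosphogluconate dehydrogenase family of the oxidative pentose phosphate pathway, AT3G18560 (0.96), the bZIP protein gene AT5G04840 (0.94) and PGM, a phosphoglycerate/bisphosphoglycerate mutase (0.93). Those most like UPM1 were PGM (0.97), AT5G41670 (0.96), the myb family gene AT1G25550 (0.95), AT1G64190 (0.94) and the glucosyl transferase gene UGT73D1 (0.94). The log2 differences of these 7 genes between KNO3 and KCl roots at 20 min were 1.06 (AT1G64190) to 2.84 (PGM), and since the genes were picked for likeness over the same arrays, these values only describe them. The genes nearest NIA1 were AT3G52950 (0.95), AT3G27210 (0.95), AT5G64550 (0.94), AT5G03320 (0.93) and AT5G28610 (0.92), but over the 18 arrays their r was 0.74 to 0.92. The genes nearest NIA2 were less alike, with r of 0.85 for AT1G13195, 0.81 for AT1G59660 and AT5G62620, and 0.78 for AT5G18640 and AT1G63530.

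Genes acting beside the 4 were looked up only among probe sets annotated with 1 gene, and few were found. The rest were not analysed here, whether or not the array carries them. Of 9 genes of tetrapyrrole and siroheme synthesis, which includes the steps before and after UPM1 and the siroheme enzyme sulfite reductase, 5 were measured: HEMA2, GSA1, HEMB1, SIRB and SIR. None of them was called at any of the 6 time points, and their median differences were -0.16, -0.10, 0.01, 0.13, 0.10 and -0.17 log2 units, beside -0.03, -0.05, -0.06, 0.01, 0.01 and -0.06 over all probe sets. SIRB, the ferrochelatase that completes siroheme, differed by -0.22 (SE 0.16) at 20 min, and SIR, sulfite reductase, by -0.17 (SE 0.11). Of 8 molybdenum cofactor genes only CNX6, a subunit of molybdopterin synthase, was found in that annotation. CNX6 differed by 0.09 to 0.35 (SE 0.19) over the 6 time points and was not called. The study lists CNX2, a further gene of this cofactor, as nitrate-regulated, in a cluster it describes as consistently induced. CNX2 was not analysed here, so CNX6 does not stand for the cofactor genes as a set. The reference genes TIP41L and GAPC2, 2 of 8 listed, were not called at any time, and at 20 min they differed by -0.02 (SE 0.19) and 0.14 (SE 0.16).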

How the data were processed

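Microarray data of 26 ATH1 arrays were taken as the deposited MAS5 signals, an intensity on a linear scale that the authors scaled with Affymetrix MAS v5.0 (per the methods, to a target median of 150, whereas here the array medians were 207.3 to 285.0 and the mean trimmed by 2% at each end was 500.0 on each array). The study calls the replicates biological; the labels do not say which cultures they came from, so p-values measure the spread between these arrays, and 2 arrays per group limit the precision. Signals were log2 transformed without further normalization, and 64 control probe sets were left out. Limma 3.58.1 (R 4.3.3) fitted 13 groups with an intensity trend in eBayes (13 residual and 7.41 prior degrees of freedom), with Benjamini-Hochberg adjustment over 22746 probe sets. Exact permutations exchanged the salts within time points. The fit was tested on simulated data, and alternatives changed the normalization, offset, filter, variance model, replicate block and arrays included. Of the probe sets, 13513 had 1 gene in the annotation, 503 several and 8730 none listed; locus symbols followed TAIR10.1. The genes, lists and tests were chosen with earlier results of these data known. Genes named were the 4 members, for each the 5 singly annotated probe sets with the highest r, and measured list genes that were called or led a list. Promoter sequences were not analysed here.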

Additional observations from a re-analysis of the deposited data

Results flagged for a closer look

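The difference between KNO3 and KCl was larger at 20 min than at 3 min for all 4 genes, by a test of that change itself in the limma fit, in which 1.34% of all probe sets were called. UPM1 changed by 2.27 log2 units (SE 0.20, adjusted p 1.3e-06), NIR1 by 2.07 (SE 0.21, 1.1e-05), NIA1 by 1.63 (SE 0.22, 0.00024) and NIA2 by 1.08 (SE 0.23, 0.020). The 3 min arrays belong to the 8 that stood apart, and the part of the array set in these values was not tested. For NIA2 the change combines 3 min signals of 4295 and 3705 in KNO3 roots, against 5219 and 5382 in KCl roots, with 20 min signals of 6235 and 6201 in KNO3 roots, against 3989.9 and 3847 in KCl roots. The NIA2 call was lost without KCl 20 min replicate 1 (adjusted p 0.071) or 2 (0.092), KNO3 20 min replicate 1 (0.078) or 2 (0.076), or KNO3 3 min replicate 2 (0.099).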

How the results depend on the processing

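The called differences of NIR1 and UPM1 at 12 to 20 min and of NIA1 at 20 min kept their direction and call in every alternative run. At 6 min 0 of the 4 genes were called with a linear model on untransformed signals, without the intensity trend, with a replicate block within each time point, with the time point alone or with the 8 arrays alone; without 1 array the count was 0 to 1. At 9 min the untransformed model called 1, UPM1. NIA2 at 20 min was called after quantile normalization (0.75), with the time point alone (0.67) and without dim probe sets (0.67). In the other 6 alternative fits it was not called. Without the intensity trend the NIA2 change between 3 and 20 min (1.08, limma adjusted p 0.081) and its trend (0.051, 0.12) were not called; without 1 array the change was 0.97 to 1.18 and the trend 0.046 to 0.056. With 9 to 20 min only, NIA2 averaged 0.058 and NIR1 minus UPM1 -0.047, both turned in sign; without 1 array NIR1 minus UPM1 ranged over -0.050 to 0.072. NIA1 at 15 min alone was not called (adjusted p 0.17). Small differences turned sign without 1 array: NIA1 at 3 min (-0.061 to 0.14) and 9 min (-0.023 to 0.18), NIR1 at 3 min (-0.19 to 0.15) and UPM1 at 3 min (-0.15 to 0.24). The same held against time 0 for NIA1 in KCl at 20 min (-0.14 to 0.22), NIA2 in KCl at 12 min (-0.011 to 0.48), and UPM1 in KCl at 15 min (-0.075 to 0.097) and 20 min (-0.032 to 0.19), and NIR1 in KNO3 at 6 min (-0.25 to 0.072); after quantile normalization NIR1 in KNO3 at 6 min was 0.063 and UPM1 in KCl at 15 min -0.0096. The causes were not tested. Replicate numbers did not pair the arrays (correlations of deviations -0.05 to 0.03); a replicate block over all groups left the counts of called genes at 0, 1, 2, 2, 3 and 3, and a block within time points gave NIR1 0.70 at 6 min (adjusted p 0.15).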
